A study of Homo sapiens with 8 samples.

Results

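Cells make cholesterol from acetyl-CoA along the mevalonate pathway and build fatty acids from the same precursor, and 29 genes of these routes were followed here through RNA sequencing of 8 libraries labelled as HSC3, an established line from a human oral squamous cell carcinoma. The list was drawn up with earlier results of these libraries known, so shares of all genes given beside it are a description only. Its genes were looked up by Ensembl identifier among the 63241 gene rows of the deposited count table, and all 29 were found. They cover 7 genes of the mevalonate pathway down to farnesyl diphosphate, 3 genes that make squalene and close it into lanosterol, and 8 genes from lanosterol to cholesterol. A further 4 genes control the pathway or carry sterol, 3 make palmitate, and 4 elongate or desaturate fatty acids.

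By their labels, 4 libraries came from cells transfected with si-Col1a1, an siRNA against COL1A1 (a gene of type I collagen), and 4 from cells given the control siRNA si-NC. Both groups are HSC3 cells that received 100 pmol of siRNA with Lipofectamine 3000 and were collected after 48 hours, and no untransfected cells are among the libraries. The series title asks whether the knockdown suppresses epithelial-mesenchymal transition, migration and invasion. The labels name polyA RNA while the extraction protocol describes ribosomal RNA depletion, and they do not tell whether the libraries of a group are separate cultures. The p-values below therefore cover the spread among these 8 libraries, which need not be a spread between cultures. That spread includes the differences in muscle and gland marker counts given below.

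As background, sterol synthesis is set by the SREBP transcription factors, which are held in the endoplasmic reticulum as precursors by SCAP and INSIG proteins while sterol is plentiful. When sterol falls, SCAP escorts them to the Golgi, proteases release their active part, and this enters the nucleus and binds sterol regulatory elements, usually beside sites for NF-Y and Sp1. SREBP-2, from SREBF2, acts mainly on cholesterol genes and SREBP-1c, from SREBF1, mainly on fatty acid genes. In squamous epithelium, cholesterol and fatty acids are also components of the lipid barrier of the outer layers.

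The libraries differed in ways that the labels do not give. Total counts ran from 30684584 to 61795990. COL1A1 itself stood at 368, 123, 301 and 155 counts per 1000000 of the library total (CPM) in the libraries labelled knockdown 1 to 4, and at 88.9, 8183, 476 and 689 CPM in those labelled control 1 to 4. The lowest value was thus in a library labelled control, so groups are called by their labels below. Summed over 12 squamous keratinocyte markers, 12.6%, 0.27%, 10.7% and 3.26% of counts fell to these genes in knockdown 1 to 4 and 0.121%, 5.85%, 1.42% and 5.66% in control 1 to 4. Over 12 skeletal muscle markers, the share was 3.72% and 4.59% in knockdown 2 and 4 and 14.3% and 14.4% in control 1 and 3, and at most 0.396% in the other libraries. Over 12 salivary gland markers it was 11.1% in knockdown 2 and 16.6% in control 1, and below 0.001% in the others. Knockdown 2, knockdown 4, control 1 and control 3 therefore held more than 1% muscle or gland marker counts, which is not the labelled cell type, and results are given with and without these 4 libraries. In bulk RNA, fewer cells of a type and less RNA per cell cannot be told apart.

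Across the 29 genes, 27 were fitted higher under the knockdown label and 2, SC5D and ACLY, were fitted lower, with a median log2 fold change of 0.83. Over all 21192 tested genes, 46.8% were fitted higher and the median log2 fold change was -0.05. With library totals in place of TMM factors, 24 of the 29 were fitted higher, against 35.9% of all tested genes. By edgeR's quasi-likelihood test with Benjamini-Hochberg adjustment, however, none of the 29 genes passed an adjusted p of 0.05, against 0% of all tested genes (0 of 21192), and the adjusted p of the 29 ran from 0.981 to 0.999. At an unadjusted edgeR p under 0.05 there were 10 of the 29, each higher in knockdown: MVD, FDPS, ACAT2, TM7SF2, MSMO1, DHCR7, SREBF2, INSIG1, FASN and SCD. Among all tested genes 2.9% met this in that direction, 1.88% in the other and 4.78% in either. DESeq2 called 1 of the 29, TM7SF2, which was higher, and gave FADS2 no p-value. Of the 28237 genes with a DESeq2 adjusted p, 0.517% were called in either direction and 0.457% as higher. With limma-voom, 0 of the 29 and 0% of all genes were called.

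**Figure D1:**
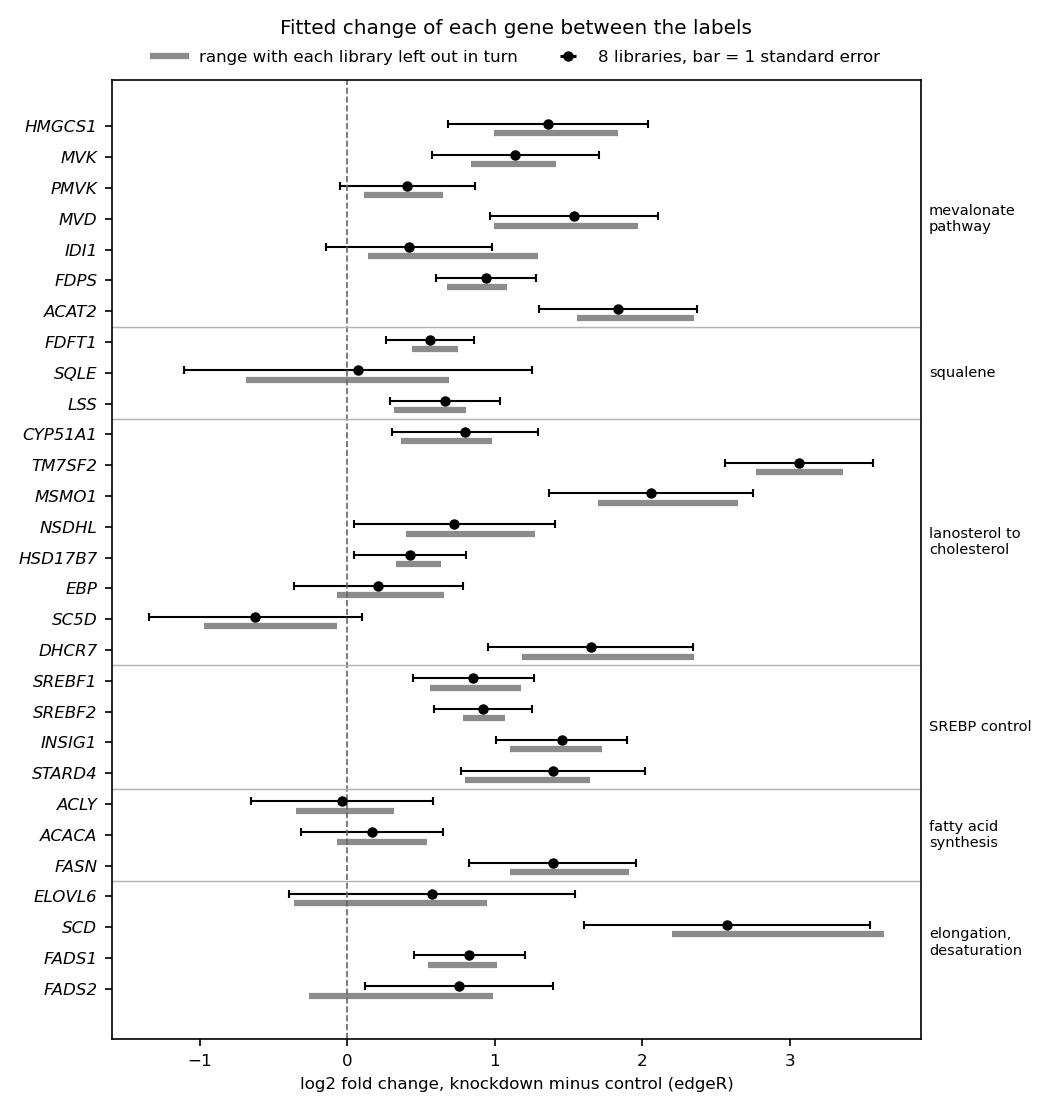
Log2 fold change (knockdown minus control label) of each of the 29 genes with its standard error, ordered by pathway step. The points of 27 genes lie above 0 and those of SC5D and ACLY below, TM7SF2 has the largest value at 3.06, and SQLE has the widest error at 1.18.

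For 4 of the 29 genes, every library labelled knockdown lay above every library labelled control: FDPS, TM7SF2, SREBF2 and INSIG1. In this direction 0.882% of all tested genes did so. None of the 29 lay lower in all knockdown libraries than in all control libraries, which 1.47% of tested genes did. The 29 genes together took 3065, 3145, 3921 and 2628 CPM in knockdown 1 to 4 and 759, 2314, 1114 and 2967 CPM in control 1 to 4. Control 2 and control 4 were close to the knockdown libraries in this sum, and control 1 and control 3 lay far below all others.

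**Figure D2:**
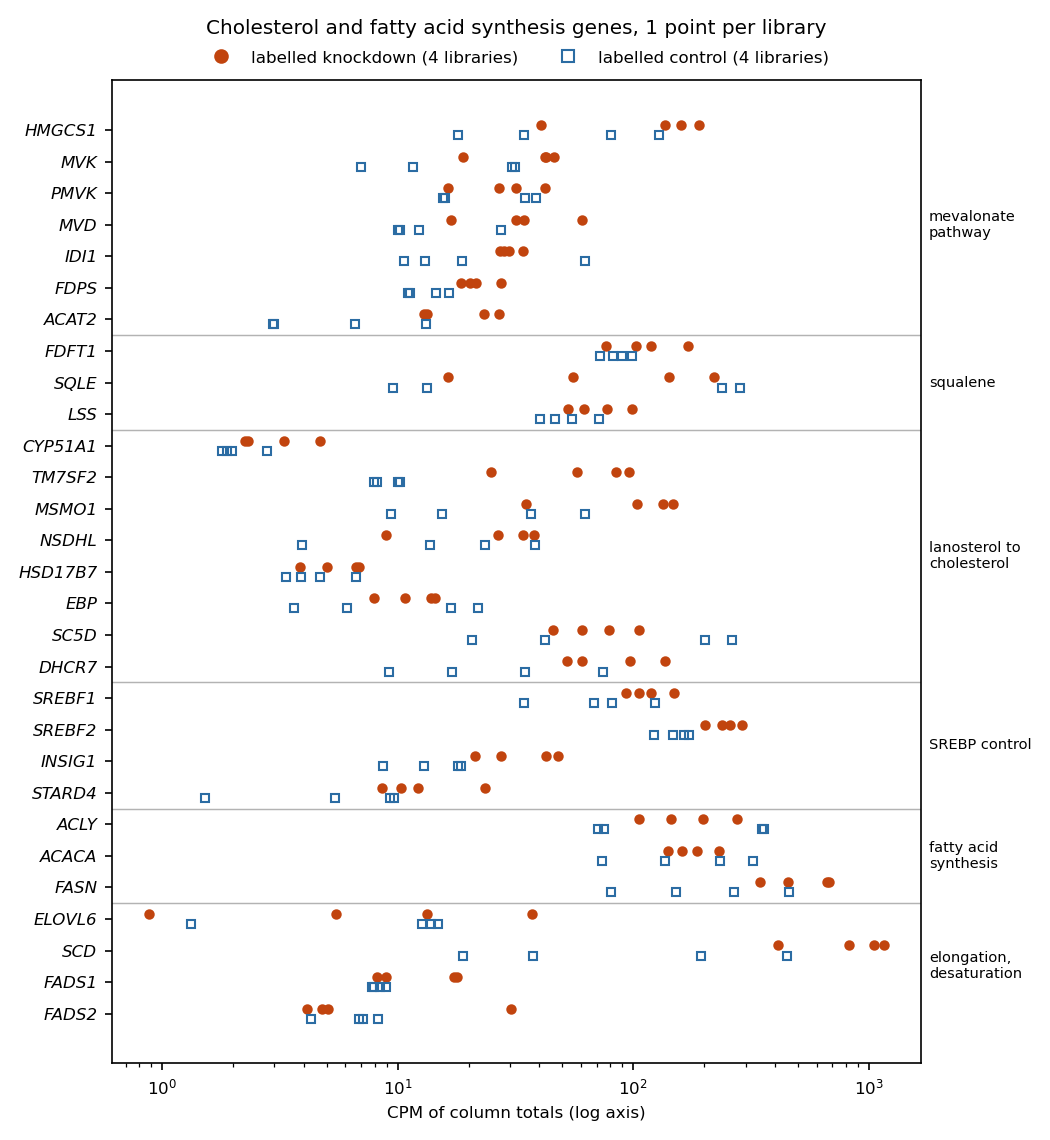
CPM of each of the 29 genes in each library on a log axis, with libraries labelled knockdown and control in separate colours. The groups are apart in FDPS, TM7SF2, SREBF2 and INSIG1 and overlap in the other 25.

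The promoters of the genes that the results turn on are shown first, as stretches searched for motifs of SREBP and its textbook partners. RefSeq (GRCh38.p14) gave 34 promoter windows for 25 of the 29 genes, each from 250 bases before to 50 after a transcription start, and windows of 1 gene can overlap. Both strands were searched for CCAAT (the NF-Y box), GGGCGG (the core of a GC box, which Sp1 binds) and TCACNCCAC (a form of the sterol regulatory element). None of these motifs contains another. The sequences of the 4 genes whose groups did not overlap and of SCD, the most abundant of the 29 per kilobase, run from 5′ to 3′ on the strand of the gene, with capitals marking CCAAT on either strand and the TCACNCCAC match.

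TM7SF2 promoter, chr11:65111622-65111921, plus strand: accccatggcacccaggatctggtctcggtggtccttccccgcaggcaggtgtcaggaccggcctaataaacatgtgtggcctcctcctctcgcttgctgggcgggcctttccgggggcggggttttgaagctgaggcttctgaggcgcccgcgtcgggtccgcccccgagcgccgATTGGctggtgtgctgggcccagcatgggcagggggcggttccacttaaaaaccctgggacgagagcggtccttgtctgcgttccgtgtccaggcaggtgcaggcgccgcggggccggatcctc
SREBF2 promoter, chr22:41832855-41833154, plus strand: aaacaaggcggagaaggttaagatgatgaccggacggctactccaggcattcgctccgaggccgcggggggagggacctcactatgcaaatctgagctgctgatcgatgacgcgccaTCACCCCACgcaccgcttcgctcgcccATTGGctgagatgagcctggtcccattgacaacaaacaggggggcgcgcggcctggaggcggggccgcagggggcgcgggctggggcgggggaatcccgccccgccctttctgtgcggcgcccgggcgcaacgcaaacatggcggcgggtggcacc
INSIG1 promoter, chr7:155297628-155297927, plus strand: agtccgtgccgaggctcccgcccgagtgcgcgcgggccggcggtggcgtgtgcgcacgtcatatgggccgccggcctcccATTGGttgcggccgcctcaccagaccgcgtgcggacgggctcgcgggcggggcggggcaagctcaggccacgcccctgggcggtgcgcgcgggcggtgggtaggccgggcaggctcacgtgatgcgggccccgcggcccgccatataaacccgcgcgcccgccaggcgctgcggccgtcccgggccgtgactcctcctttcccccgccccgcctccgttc
FDPS promoter, chr1:155308616-155308915, plus strand: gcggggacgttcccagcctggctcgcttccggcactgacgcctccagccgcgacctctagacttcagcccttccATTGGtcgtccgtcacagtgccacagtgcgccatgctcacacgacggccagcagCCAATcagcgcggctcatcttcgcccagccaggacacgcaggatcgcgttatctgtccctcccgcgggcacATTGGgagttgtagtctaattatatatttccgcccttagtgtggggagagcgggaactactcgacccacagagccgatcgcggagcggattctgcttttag
SCD promoter, chr10:100346983-100347282, plus strand: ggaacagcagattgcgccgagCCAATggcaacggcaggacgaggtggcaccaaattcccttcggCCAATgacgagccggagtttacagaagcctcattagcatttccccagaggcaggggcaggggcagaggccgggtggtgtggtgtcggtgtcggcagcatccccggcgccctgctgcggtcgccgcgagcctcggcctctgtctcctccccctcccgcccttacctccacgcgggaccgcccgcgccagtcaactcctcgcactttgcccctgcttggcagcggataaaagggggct

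The SREBF2 window held TCACCCCAC at positions -133 to -125 from the start, followed by a CCAAT on the opposite strand at -106 to -102. In TM7SF2 there was a single CCAAT, on the opposite strand at -74 to -70, and in INSIG1 a single one, also on the opposite strand, at -170 to -166. FDPS held 3 CCAAT and SCD 2. Over the 34 windows, CCAAT was in 24 (70.6%), against 34.6% of all 35116 RefSeq promoter windows, which include those of noncoding genes. GGGCGG was in 30 (88.2%), against 45% of all windows. TCACNCCAC was found in 1 window (2.94%), that of SREBF2, against 1.13% of all windows. These matches describe letters in a window, and no binding was measured.

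**Figure D3:**
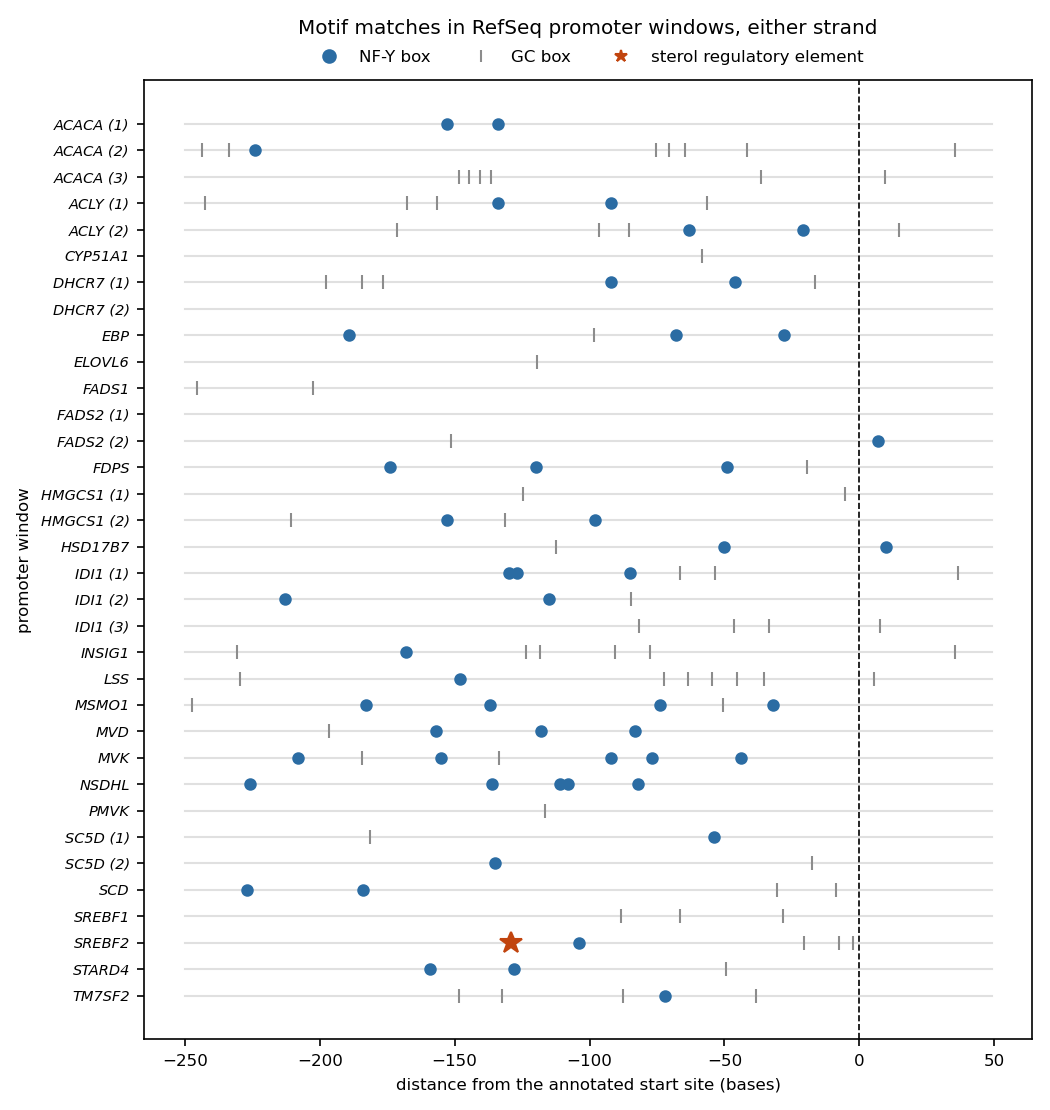
Positions of the searched motifs in the promoter windows, in bases from the transcription start. The NF-Y box is in 24 of 34 windows, the GC box in 30, and the sterol regulatory element form in SREBF2 only.

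All 7 genes of the mevalonate pathway down to farnesyl diphosphate were fitted higher under the knockdown label, with a median log2 fold change of 1.14, and 3 of them had an unadjusted edgeR p under 0.05. ACAT2, which joins acetyl-CoA units in the cytosol, stood at 26.9, 13.0, 13.4 and 23.3 CPM in knockdown 1 to 4 and 2.99, 6.62, 13.2 and 2.96 CPM in control 1 to 4. Control 3 lay between knockdown 2 and knockdown 3, and the other controls were below all knockdown libraries. With library sizes scaled by TMM factors, the groups of ACAT2 did not overlap, with knockdown higher. Its log2 fold change was 1.84 (SE 0.536, edgeR adjusted p = 0.981). Of its 4299 exon bases, ACAT2 shares 397 with TCP1 on the opposite strand, whose level was 73.9 to 231 CPM. On that strand it also shares 1141 with SOD2, for which no row was matched, and 1458 with SOD2-OT1, at most 0.837 CPM. Without a stated strand setting, reads of ACAT2 and of these genes cannot be told apart there.

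HMGCS1, which condenses acetoacetyl-CoA with acetyl-CoA, had 137, 40.7, 189 and 160.0 CPM in knockdown and 18.0, 34.5, 129 and 80.3 CPM in control, a log2 fold change of 1.36 (SE 0.677, edgeR adjusted p = 0.981). Its groups overlapped through knockdown 2, which was below control 3 and control 4. MVK, the mevalonate kinase, was 37.5 ± 12.4 CPM in knockdown and 20.2 ± 12.7 CPM in control (SD, n = 4 each), again with knockdown 2 inside the range of the controls. PMVK, the next kinase, had 29.3 ± 10.8 and 26.2 ± 12.2 CPM (SD, n = 4 each), with overlapping groups. MVD, which decarboxylates the product to isopentenyl diphosphate, stood at 34.5, 16.8, 60.4 and 31.9 CPM against 12.4, 10.0, 10.3 and 27.4 CPM. Only control 4 reached into the knockdown range, and the log2 fold change was 1.54 (SE 0.569, edgeR adjusted p = 0.981).

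IDI1, the isomerase that makes dimethylallyl diphosphate, was even within the knockdown label, at 27.1 to 34.2 CPM. Its controls held both extremes, with 10.6 to 18.8 CPM in control 1 to 3 and 62.6 CPM in control 4. FDPS, which joins the isoprene units to farnesyl diphosphate, was the gene of this step whose groups stayed apart. It stood at 20.2, 18.6, 27.5 and 21.5 CPM in knockdown and 11.04, 16.6, 11.3 and 14.6 CPM in control. The lowest knockdown library lay just above the highest control, and the log2 fold change was 0.94 (SE 0.339, edgeR adjusted p = 0.981). FDPS has processed pseudogene copies, so its counts are uncertain to the extent that reads were split with them.

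The 3 genes from farnesyl diphosphate to lanosterol had a median log2 fold change of 0.56, and none reached an unadjusted edgeR p of 0.05. FDFT1, the squalene synthase, was 103, 171, 76.5 and 119 CPM in knockdown and 98.4, 72.3, 82.1 and 89.4 CPM in control. SQLE, the epoxidase that takes squalene into the sterol branch, had 142, 16.3, 220.3 and 55.3 CPM in knockdown and 9.51, 285, 13.3 and 239 CPM in control. Its levels split within each label: knockdown 2, control 1 and control 3 were low, and control 2 and control 4 were the highest of all. The fitted log2 fold change was 0.07 (SE 1.18, edgeR adjusted p = 0.999), while the ratio of mean CPM was 0.794, so its direction depends on the scale. LSS, which closes squalene epoxide into lanosterol, was 72.8 ± 20.4 CPM in knockdown and 53.2 ± 13.4 CPM in control (SD, n = 4 each).

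From lanosterol to cholesterol, 7 of 8 genes were fitted higher, with a median log2 fold change of 0.76, and 3 had an unadjusted edgeR p under 0.05. TM7SF2, a sterol C14-reductase of the endoplasmic reticulum on chromosome 11 (65111845 to 65116384, plus strand, GRCh38), differed most of the 29 genes. It stood at 96.2, 25.0, 57.9 and 84.6 CPM in knockdown 1 to 4 and at 10.2, 8.16, 7.91 and 10.1 CPM in control 1 to 4. The controls were within a narrow band, and the lowest knockdown library, knockdown 2, was above each of them. The mean was 65.9 ± 31.6 CPM against 9.08 ± 1.22 CPM (SD, n = 4 each), 7.26 times higher. The log2 fold change was 3.06 (SE 0.502, edgeR adjusted p = 0.981), and leaving out any single library gave 2.77 to 3.36. DESeq2 gave it a log2 fold change of 3.04 and an adjusted p of 0.000263.

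LBR, the lamin B receptor of the inner nuclear membrane, catalyses the same C14 reduction. It was 42.7, 22.8, 16.6 and 36.9 CPM in knockdown and 13.3, 44.1, 33.7 and 59.4 CPM in control, with a log2 fold change of -0.11 (SE 0.460, edgeR adjusted p = 0.997). Per kilobase of exon, TM7SF2 stood at 28.2, 7.34, 17.0 and 24.8 CPM in knockdown against 8.13, 4.35, 3.16 and 7.03 CPM for LBR. In control, TM7SF2 had 2.99, 2.39, 2.32 and 2.96 CPM per kilobase and LBR 2.52, 8.39, 6.41 and 11.3. The ratio of TM7SF2 to LBR per kilobase was 3.47, 1.69, 5.37 and 3.53 in knockdown and 1.19, 0.285, 0.362 and 0.262 in control. TM7SF2 was thus the more abundant reductase message in all knockdown libraries and in control 1, and LBR in the other controls. This pair was chosen with the pattern of TM7SF2 known, so the ratio is a description with no test.

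**Figure D4:**
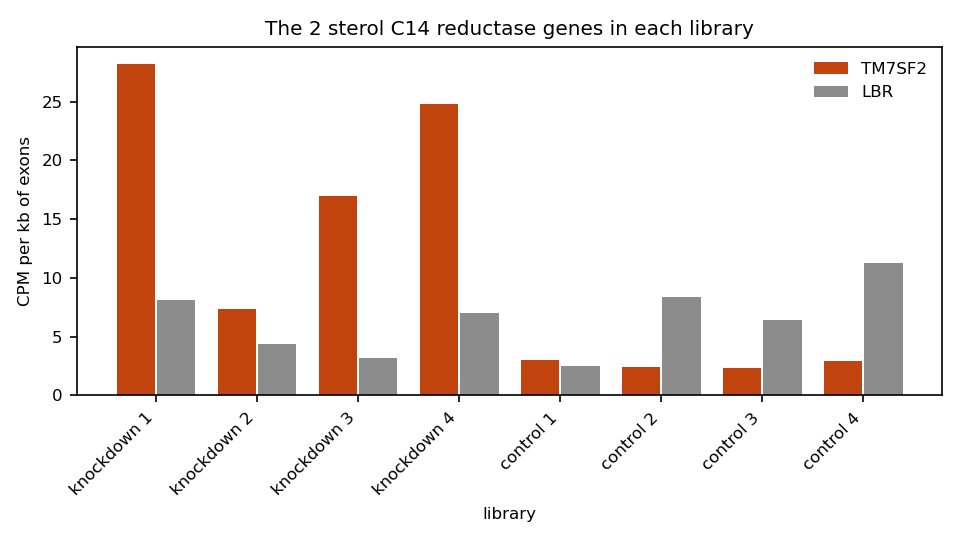
CPM per kilobase of exon of TM7SF2 and LBR in each library, as bars on a linear axis. TM7SF2 lies above LBR in the 4 libraries labelled knockdown and in control 1, and below LBR in control 2, 3 and 4.

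MSMO1, which removes the C4 methyl groups, followed with 104, 35.2, 148 and 134 CPM in knockdown and 9.35, 36.7, 15.5 and 62.4 CPM in control. Knockdown 2 was below control 2 and control 4, and the other knockdown libraries were above all controls. Its log2 fold change was 2.06 (SE 0.693, edgeR adjusted p = 0.981). DHCR7, which makes cholesterol from its immediate precursor, had 97.1, 52.5, 136 and 60.4 CPM against 16.9, 34.7, 9.15 and 74.2 CPM. Control 4 was the only control inside the knockdown range, and the log2 fold change was 1.65 (SE 0.694, edgeR adjusted p = 0.981).

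The other genes of this step differed less. NSDHL, the C4 decarboxylase, was 26.9 ± 12.9 CPM in knockdown and 19.9 ± 14.7 CPM in control (SD, n = 4 each), and HSD17B7, the ketone reductase of the same cycle, was 5.59 ± 1.41 and 4.64 ± 1.45 CPM. EBP, the sterol isomerase, had nearly equal means of 11.7 ± 3.00 and 12.1 ± 8.68 CPM (SD, n = 4 each), with control 2 and control 4 above every knockdown library and control 1 and control 3 below. SC5D, the C5 desaturase, was the sterol gene fitted lower: it stood at 78.8, 45.8, 60.6 and 106 CPM in knockdown and at 20.6, 264, 42.4 and 202 CPM in control, a log2 fold change of -0.62 (SE 0.723, edgeR adjusted p = 0.987). The controls again held the extremes, with control 1 and control 3 below and control 2 and control 4 above every knockdown library. CYP51A1, the C14 demethylase, was low throughout, at 2.25 to 4.66 CPM in knockdown and 1.79 to 2.79 CPM in control. Of its 3584 exon bases, 2844 lie within AC000120.2 on the same strand, which stood at 0 CPM in all 8 libraries, so the CYP51A1 level depends on how the authors assigned shared reads.

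All 4 genes of pathway control and sterol carriage were fitted higher, with a median log2 fold change of 1.16, and the groups of 2 of them did not overlap. SREBF2, the gene of SREBP-2 on chromosome 22 (41833079 to 41907308, plus strand), had 291, 203, 239 and 259 CPM in knockdown and 123, 173, 147 and 164 CPM in control. Both labels were even, at 248 ± 37.0 and 152 ± 22.3 CPM (SD, n = 4 each), and the highest over lowest library was 2.37, among the smallest spreads of the 29 genes. The log2 fold change was 0.92 (SE 0.331, edgeR adjusted p = 0.981). INSIG1, which retains SCAP when sterol is plentiful and is itself an SREBP target, was 27.4, 42.7, 48.1 and 21.4 CPM in knockdown and 18.5, 8.71, 18.1 and 12.9 CPM in control. Its groups stayed apart by a small margin between knockdown 4 and control 1, and overlapped once library sizes were scaled by TMM factors. The log2 fold change was 1.45 (SE 0.446, edgeR adjusted p = 0.981).

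SREBF1, the gene of SREBP-1a and SREBP-1c, was 93.6, 106, 148 and 119 CPM in knockdown and 34.5, 81.2, 68.3 and 124 CPM in control, where control 4 exceeded all knockdown libraries but knockdown 3. Per kilobase of exon, SREBF2 exceeded SREBF1 in every library, 1.71 to 3.30 times in knockdown and 1.41 to 3.77 times in control. STARD4, a carrier that moves cholesterol between membranes, stood at 10.3, 12.2, 23.4 and 8.61 CPM in knockdown and 1.52, 9.68, 5.43 and 9.25 CPM in control. Only knockdown 4 fell among the controls, and the log2 fold change was 1.40 (SE 0.624, edgeR adjusted p = 0.981).

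Of the 3 genes that make palmitate, 2 were fitted higher and 1 lower, with a median log2 fold change of 0.17, and 1, FASN, had an unadjusted edgeR p under 0.05. FASN, the fatty acid synthase, had 344, 679, 662 and 454 CPM in knockdown and 80.7, 267, 152 and 457 CPM in control. Control 4 was above knockdown 1 and knockdown 4, and the other controls were below every knockdown library. The log2 fold change was 1.39 (SE 0.568, edgeR adjusted p = 0.981). ACLY, which splits citrate into cytosolic acetyl-CoA, was 181 ± 73.2 CPM in knockdown and 214 ± 163 CPM in control (SD, n = 4 each), a log2 fold change of -0.04 (SE 0.619, edgeR adjusted p = 0.999). ACACA, the carboxylase that makes malonyl-CoA, was 179.7 ± 39.4 CPM in knockdown and 192 ± 109.6 CPM in control (SD, n = 4 each), a log2 fold change of 0.17 (SE 0.482, edgeR adjusted p = 0.997). For both, control 2 and control 4 were above every knockdown library, and control 1 and control 3 below.

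The 4 genes of elongation and desaturation were fitted higher, with a median log2 fold change of 0.79, and 1 of them, SCD, had an unadjusted edgeR p under 0.05. SCD, the desaturase that makes oleate and palmitoleate, had the highest mean per kilobase of exon of the 29 genes, 96.6 CPM, and the widest range over libraries. It stood at 821, 1049, 1162 and 412 CPM in knockdown 1 to 4 and at 19.0, 194, 37.4 and 448 CPM in control 1 to 4, a highest over lowest library of 61.2. Control 4 lay just above knockdown 4, and all other controls lay below every knockdown library. The means were 861 ± 331 and 175 ± 199 CPM (SD, n = 4 each). On the log2 scale the difference was 2.58 (SE 0.970, edgeR adjusted p = 0.981). Leaving out any single library gave 2.20 to 3.64, the highest without control 4, and limma-voom gave 3.36. Per kilobase, SCD exceeded FASN 4.17, 2.70, 3.06 and 1.59 times in knockdown 1 to 4. In control the ratio was 0.411, 1.27, 0.429 and 1.71, so that control 1 and control 3 held less SCD than FASN message.

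SCD and FASN are also abundant in fat and sebaceous cells. Summed over 8 adipocyte markers, the level was 17.9 to 174 CPM in knockdown and 156 to 558 CPM in control, and all 8 were above 0 in at least 1 library. ADIPOQ was at 0 in knockdown 1, knockdown 3, control 2 and control 4, while FABP4, also found in endothelial cells, was highest in control 4 and control 2, at 241 and 124 CPM, and made up most of the sum there. ADIPOQ, PLIN1, LEP, CIDEC, LPL and LIPE were highest in control 3, at 36.3, 104, 6.20, 15.2, 92.4 and 22.6 CPM. PLIN4 was highest in control 1, at 317 CPM, and made up most of the sum in that library. Summed over 6 sebaceous markers, the level was 3.72 to 9.82 CPM in knockdown and 1.30 to 3.66 CPM in control, and AWAT2 was at 0 in all libraries but knockdown 1 and knockdown 4. The sebaceous sum was mostly KRT79 in knockdown 1, 3 and 4, at 8.67, 5.24 and 5.04 CPM, and mostly CIDEA in knockdown 2 and control 3, at 2.87 and 3.04 CPM. The part of either cell type in the SCD and FASN values was not tested.

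The remaining genes of this step were low. ELOVL6, which extends palmitate to stearate, was 13.3, 5.48, 0.878 and 37.2 CPM in knockdown and 1.33, 12.7, 13.8 and 14.9 CPM in control, with both the lowest and the highest library under the knockdown label. Its lowest value rests on 32 counts, with a Wilson 95% interval of 0.622 to 1.24 CPM that covers counting error only. FADS1, the delta-5 desaturase, was 17.9 and 17.3 CPM in knockdown 1 and 2 and 7.78 to 8.91 CPM in the other libraries. FADS2, the delta-6 desaturase, stood at 30.3 CPM in knockdown 2 and 4.14 to 8.29 CPM in the others. These neighbours share 490 bases of exon on opposite strands, so their reads cannot be told apart there.

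Much of the spread of the 29 genes lay between libraries of the same label. Control 1 was the lowest of the 8 libraries for 16 of the 29 genes and control 3 for 5, and knockdown 3 was the highest for 11. The 18 genes of the cholesterol branch summed to 1066, 586, 1241 and 1035 CPM in knockdown and 317, 966, 448 and 1041 CPM in control. Knockdown 2, control 1 and control 3 were low in this sum, and these are 3 of those 4 libraries rich in muscle or gland markers and the 3 lowest in keratinocyte markers. Knockdown 2 was not low in SCD, FASN or FADS2.

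**Figure D5:**
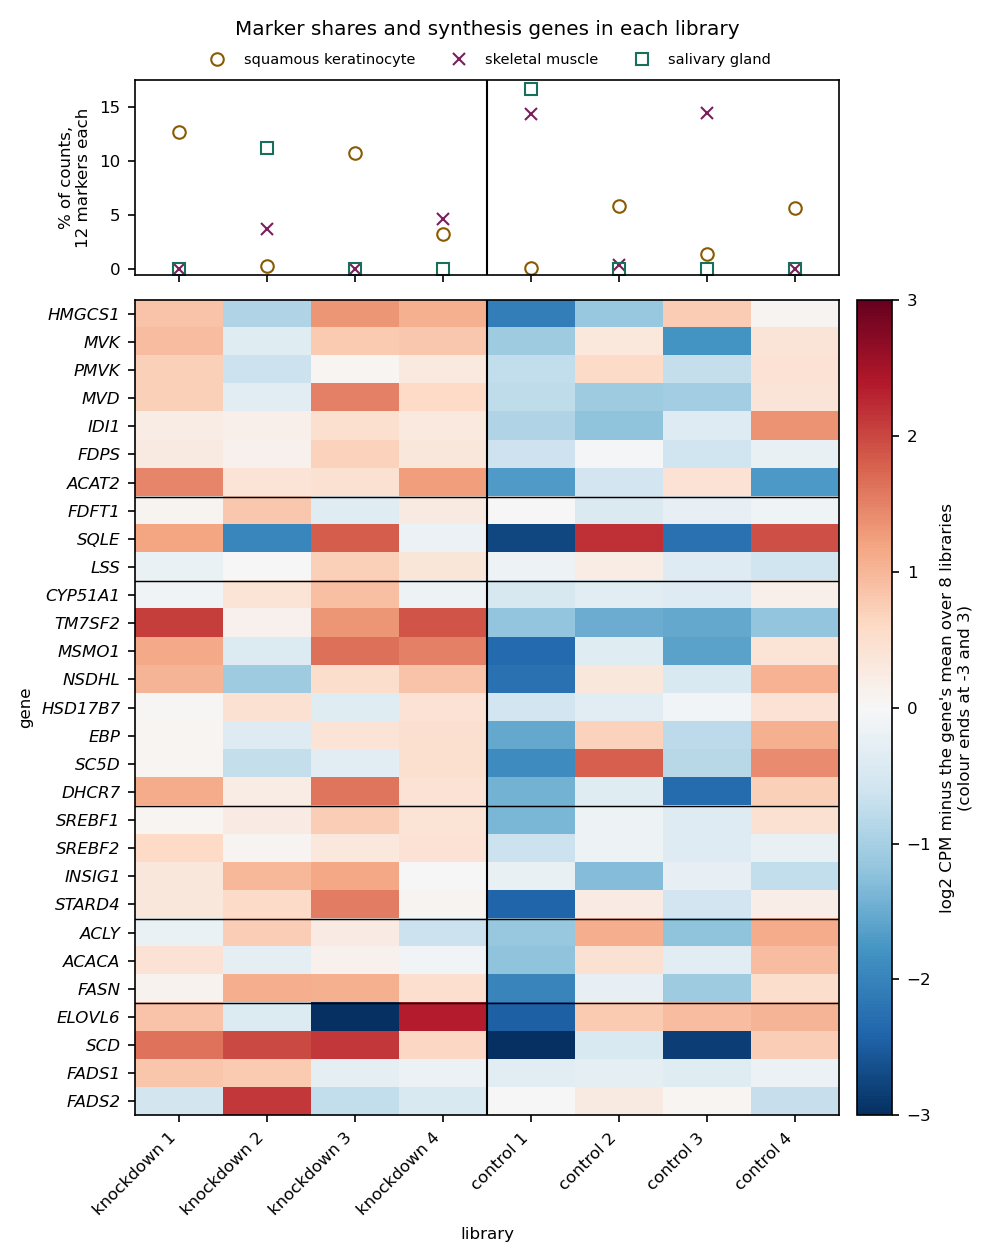
Upper panel: percent of counts in keratinocyte, muscle and salivary gland markers in each library. Lower panel: level of each of the 29 genes in each library relative to the gene's own mean, as a colour scale in log2 units, with control 1 lowest for 16 genes.

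Leaving out knockdown 2, knockdown 4, control 1 and control 3 left 2 libraries a group, whose marker shares still differed by label. Keratinocyte markers took 12.6% and 10.7% of counts in knockdown 1 and 3, and 5.85% and 5.66% in control 2 and 4. For 8 fibroblast markers, COL1A1 among them, it was 0.0921% and 0.0643%, and 1.94% and 0.181%. The part of these differences in the fold changes was not tested. In this setting, 23 of the 29 genes were fitted higher with a median log2 fold change of 0.96, against 47.5% of all tested genes. TM7SF2 then had a log2 fold change of 3.51 (SE 0.432, edgeR adjusted p = 0.173) and SCD one of 2.09 (edgeR adjusted p = 0.360). SREBF2 was at 1.11, INSIG1 at 2.29 and FDPS at 1.09 on the log2 scale, and SC5D at -1.29. In the 4 libraries that remain, 12 of the 29 genes were higher in both knockdown than in both control libraries (10.6% of all tested genes), and SQLE, EBP, SC5D, ACLY and ACACA were lower in both (40.4% of all tested genes). With the muscle share as a covariate, 24 of the 29 were fitted higher (52.9% of all genes) with a median of 0.69. With the keratinocyte share as a covariate it was 23 (46.8% of all genes) with a median of 0.67.

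The count of genes whose groups did not overlap moved with single libraries. It went from 4 to 9 without knockdown 2, where 3.07% of all tested genes were apart in that direction and 6.26% in the other, and HMGCS1, MVK, MVD, ACAT2 and MSMO1 joined while all of the first 4 stayed. Without control 4 it was 11, against 1.41% of all tested genes (2.78% in the other direction), with MVD, IDI1, CYP51A1, DHCR7, SREBF1, FASN and SCD joining the same 4. None of the 29 was lower in all remaining knockdown libraries in either setting.

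Of 53 other genes around these routes, 51 passed the filter on low counts. Among them 25 were fitted higher and 26 lower, with a median log2 fold change of -0.11, and none was called by edgeR at an adjusted p of 0.05. At an unadjusted edgeR p under 0.05, 2 of the 51 were higher (TECR and DGAT2) and 2 lower (NR1H3 and SCARB1), against 2.9% and 1.88% of all tested genes. These lists were drawn up with earlier results of the same libraries known, as the 29 genes were.

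The 7 genes of sterol sensing and SREBP processing had a median log2 fold change of -0.46, and 6 of them were fitted lower. SCAP, the SREBP escort, was at -0.34 (SE 0.320) and MBTPS1, the site-1 protease, at -0.30 (SE 0.362) on the log2 scale. NR1H2, the oxysterol receptor LXR beta, stood at 34.9, 41.6, 46.5 and 44.0 CPM in knockdown and 49.6, 66.1, 50.9 and 97.2 CPM in control, with every control above every knockdown library. Its log2 fold change was -0.46 (SE 0.319, edgeR adjusted p = 0.981). It was the 1 gene of the 51 lower without overlap, against 1.47% of all tested genes. The separation holds for CPM of library totals. TMM factors were 0.7503 in knockdown 3 and 1.191 in control 3, so with sizes scaled by them knockdown 3 passes control 3. NR1H3, or LXR alpha, was 3.6, 6.58, 2.36 and 4.03 CPM against 7.45, 15.96, 6.39 and 7.48 CPM. Only control 3 lay inside the knockdown range, and the log2 fold change was -1.05 (SE 0.443, edgeR adjusted p = 0.981).

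Among 10 genes of sterol transport and storage, 4 were fitted higher and 6 lower. ABCA1, a cholesterol exporter that LXR induces, was 126, 64.8, 218 and 74.6 CPM in knockdown and 52.4, 652, 314 and 542 CPM in control, a log2 fold change of -1.32 (SE 0.760, edgeR adjusted p = 0.981). Control 1 was the lowest library, and the other controls were above all knockdown libraries. Both NR1H3 and ABCA1 are also expressed in macrophages. Summed over 7 leukocyte markers, the level was 63.0, 128, 78.2 and 38.5 CPM in knockdown and 81.4, 353, 95.1 and 149 CPM in control. CSF1R and CD14 were highest in control 2, at 191 and 69.9 CPM, which was also the highest library for NR1H3 and ABCA1, and their part in these values was not tested. SCARB1, the HDL receptor, was at -1.40 (SE 0.618, edgeR adjusted p = 0.981), and OSBP, an oxysterol-binding protein, at -0.15 (SE 0.433). Of 7 tested genes of other isoprenoid and sterol enzymes, 4 were fitted higher. Their side branch to dolichol was represented by DHDDS, at 0.54 (SE 0.320), and NUS1, at 0.58 (SE 0.440), which together form the cis-prenyltransferase.

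In fatty acid supply and elongation, 13 of 21 tested genes were fitted higher, with a median log2 fold change of 0.31. TECR, the reductase that ends each elongation cycle, was 121, 97.2, 125 and 189 CPM in knockdown and 47.5, 112, 65.2 and 43.9 CPM in control. Only control 2 was inside the knockdown range, and the log2 fold change was 1.19 (SE 0.390, edgeR adjusted p = 0.981). ACSL1 and ACSL3, which activate fatty acids to acyl-CoA, were at 0.40 (SE 0.597) and 0.25 (SE 0.420).

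The 6 genes of triglyceride assembly were split evenly between higher and lower. DGAT2, which adds the last acyl chain, had 32.2, 5.90, 82.8 and 36.5 CPM in knockdown and 1.36, 3.45, 5.52 and 13.1 CPM in control. Knockdown 2 was below control 4, and the other knockdown libraries were above all controls. The log2 fold change was 3.13 (SE 0.937, edgeR adjusted p = 0.981). AGPAT2, an acyltransferase of the same route, was at -0.22 (SE 0.461). LPIN1, the phosphatidate phosphatase, was at 0.29 (SE 0.913), and it was high where muscle markers were: 123 and 172 CPM in knockdown 2 and 4 and 125 and 137 CPM in control 1 and 3, against 8.79 to 30.7 CPM in the others.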

How the data were processed

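RNA was measured in 8 libraries, 4 per label. The authors deposited whole-number read counts per gene without normalization. The build was hg38 and the tools STAR and featureCounts (Subread), per the submitters' processing notes. Versions, annotation, strand and shared-read settings were not given in the sources used here. Columns were matched to libraries by group and number, the headers saying knockout where the titles say knockdown.

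CPM are counts per 1000000 of the column total. Library labels were compared with edgeR 4.0.16 in R 4.3.3 (quasi-likelihood test, TMM factors, filterByExpr, 21192 genes kept, all 29 among them), with Benjamini-Hochberg adjustment over all of them and a threshold of 0.05. Each edgeR SE is the size of the log2 fold change divided by the square root of the test's F statistic. Permutation tests of TM7SF2 and SCD are not given, since both genes were chosen with earlier results known. Exon lengths and positions come from GENCODE 29 on GRCh38. The edgeR, limma-voom and DESeq2 fits were also run on simulated counts. How often a true change would be called at the spread of these libraries is not given here. The absence of edgeR calls therefore does not show an absence of change. Totals differ 2.01-fold, and at these depths shares have Wilson 95% half-widths of at most 0.0121 percentage points, for counting error only.

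All 29 genes are named, plus LBR, the 2 most abundant other genes of each list, and each with an unadjusted p under 0.05 or groups apart. The members and lists were chosen with earlier results of these data known. Alternatives were DESeq2 1.42.0, limma 3.58.1 (voom), RLE factors, library totals, no filter, a replicate block, leaving out each library or 4 libraries, and marker shares as covariates. The alternatives for the count of genes whose groups do not overlap were added after seeing the data.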

Additional observations from a re-analysis of the deposited data

Results flagged for a closer look

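In 8 of 90 groups of 4 libraries, 5 of them among the 58 groups of the 29 genes, a single library stood far from the other 3 by Dixon's ratio of gap to range. For independent, normally distributed values, chance gives this in about 1 in 20 groups. The CPM here need not be so distributed, and the groups share libraries. Knockdown 2 was apart for MVK, at 19.03 CPM with the nearest library at 42.1, and for FADS2, at 30.31 CPM with the nearest at 5.071. Control 4 was apart for MVD, at 27.39 CPM against 12.37, for IDI1, at 62.55 CPM against 18.76, and for OSBP, at 270.9 CPM against 113.1. Control 1 was low for ELOVL6, at 1.332 CPM against 12.69. Control 2 was high for NR1H3, at 15.96 CPM against 7.478, and knockdown 1 was low for DHDDS, at 45.45 CPM against 57.39.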

How the results depend on the processing

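DESeq2 called 146 of the 28237 genes it gave an adjusted p, where edgeR called 0 of 21192 (1013 at an unadjusted p under 0.05). It called 1 of the 29, TM7SF2, at a log2 fold change of 3.04, and gave FADS2 no p-value. Leaving out 1 library gave 0 to 1 called genes (1 without knockdown 2), 24 to 28 of the 29 fitted higher, and medians of 0.74 to 0.99. The count of the 29 with every knockdown library above every control library ran from 4 to 11 with 1 library left out. Without the 4 libraries over 1% muscle or gland it was 12, against 10.6% of all tested genes. Another 5 of the 29 were then lower without overlap, against 40.4% of all tested genes. With library totals in place of TMM factors, the median of all genes was -0.21, 35.9% of all genes were fitted higher, and 24 of the 29 were, with a median of 0.66. The replicate numbers did not pair the libraries: same-numbered libraries deviated with correlations of -0.64 to -0.29, and none correlated best with its own number. With the replicate block, edgeR called 0 genes, 28 of the 29 were fitted higher with a median of 0.82, and 3 rather than 10 had an unadjusted p under 0.05. Over all genes, 49.1% were then fitted higher and 352 rather than 1013 had such a p. SCD was at 3.51 with the block.

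Log2 fold changes of these genes reversed, and the cause was not tested. As reported, the largest of them were FADS2 at 0.76 and ELOVL6 at 0.57. With library totals, SQLE was at -0.33, EBP at -0.041 and ACACA at -0.093, and without the filter SQLE was at -0.013. Without the 4 libraries, SQLE was at -0.044, EBP at -0.18, ELOVL6 at -0.59, FADS2 at -0.030 and ACSL3 at -0.44. With the muscle covariate, SQLE was at -0.80, EBP at -0.20 and ACACA at -0.27. With the keratinocyte covariate, PMVK was at -0.064, SQLE at -1.07, EBP at -0.084 and ACACA at -0.22. ACLY was at 0.27 with limma-voom and 0.26 with the replicate block. Leaving out 1 library gave -0.69 to 0.69 for SQLE, -0.069 to 0.66 for EBP, -0.34 to 0.32 for ACLY, -0.069 to 0.54 for ACACA, -0.36 to 0.95 for ELOVL6 and -0.26 to 0.99 for FADS2. For the other genes it gave -0.43 to 0.20 for LBR, -0.42 to 0.30 for OSBP, -0.30 to 0.64 for ACSL1, -0.25 to 0.41 for ACSL3, -0.47 to 0.080 for AGPAT2 and -0.24 to 0.90 for LPIN1.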

Other observations

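Values of 2 partner genes of the same reactions, ACACB and SCD5, were chosen after they were seen. ACACB, the acetyl-CoA carboxylase of the mitochondrial surface, stood at 6.35, 131, 4.94 and 76.3 CPM in knockdown 1 to 4 and 211, 15.4, 191 and 3.29 CPM in control 1 to 4. It was high in knockdown 2, knockdown 4, control 1 and control 3, the libraries rich in muscle or gland markers, and ACACA was at its lowest in control 1, control 3 and knockdown 2. SCD5, the other stearoyl-CoA desaturase of human cells, was 12.5, 30.9, 1.37 and 6.66 CPM in knockdown and 31.8, 28.8, 8.75 and 13.5 CPM in control, with the lowest value in knockdown 3, where SCD was highest, and a high one in knockdown 2, where SCD was also high.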
